A study of Mus musculus with 23 samples.

Results

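KO library 8 is 1 of 23 RNA sequencing libraries labelled as hippocampus of female mice, and its messenger RNA held hypothalamic genes at high levels and hippocampal genes at low levels. It was picked out by a measured count: it is the 1 library with more than 1000 counts of Pmch, the gene of melanin-concentrating hormone. It was set against the 17 reference libraries with fewer than 1000 counts of Pmch and fewer than 10000 counts of Ttr, which encodes transthyretin, an abundant transcript of the choroid plexus. The series asks how loss of Ins2, one of the mouse's insulin genes, bears on the brain, and comprises 12 wild-type libraries (Ins2+/+, WT) and 11 knockout libraries (Ins2-/-, KO). KO library 8 and 7 reference libraries (KO 4, 9, 13, 16, 18, 21 and 22) were Ins2-/-, and 10 reference libraries (WT 1, 3, 5, 10, 11, 15, 19, 20, 23 and 24) were Ins2+/+. WT 14, WT 17, KO 2, KO 6 and KO 12 were left out by their Ttr counts. No treatment is given in the labels, and strain, age and dissection batch are not given in the sources used here. The labels do not say whether each library came from 1 animal.

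Pmch had 10149 counts in KO library 8 and at most 7 in any other library. Ttr ranged from 66 to 1173 counts in the reference libraries and from 43446 to 296745 counts in the libraries left out, with 7 counts in KO library 8. These values define the comparison and carry no test. Every ratio between KO library 8 and the reference libraries below is likewise a description, because the same library and the same kind of measurement chose the members, and because 1 library has no replicate.

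The hypothalamus lies at the base of the forebrain, below the thalamus, and controls feeding, sleep, body temperature, reproduction and water balance through small groups of neurons that each make characteristic peptides. Its lateral part holds the melanin-concentrating hormone and orexin neurons, its paraventricular and supraoptic nuclei make oxytocin and vasopressin, and its arcuate nucleus holds the neurons that sense nutritional state. The hippocampus belongs to the telencephalon: its granule cells and pyramidal cells are glutamatergic, use the vesicular glutamate transporter VGLUT1, and develop under transcription factors that the hypothalamus largely lacks.

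KO library 8 held 14863640 counts, and the reference libraries 13792274 to 22953261. It had 22327 genes with a count, within the reference range of 21246 to 22601. Mitochondrial genes took 4.468% of its counts and 4.815% to 6.425% in the reference libraries. Across the genes compared, which are not independent replicates, its log2 CPM (counts scaled to a common library total) correlated with single reference libraries at r = 0.9062 to 0.9371, and pairs of reference libraries correlated at 0.9725 to 0.993. The genotype label was checked separately: Ins2 had 0 counts in KO library 8, and a count of 0 there allows up to 0.1753 CPM. As 5 of the 12 WT libraries also had 0 counts of Ins2, Ccnd1 was more informative. It stood at 29.8 CPM in KO library 8, beside 28 ± 2.59 CPM over all KO libraries (SD, n = 11, KO library 8 included) and 62.2 ± 7.13 CPM in WT libraries (SD, n = 12). Thus its Ccnd1 level lay with the KO libraries, which without it had 27.8 ± 2.66 CPM (SD). Gm26793, the other gene called by genotype below, was less clear, at 1.29 CPM (22 counts) in KO library 8. This was above every WT library (at most 1.14 CPM, in WT 23) but below every other KO library (at least 1.36 CPM, in KO 12). The series holds no wild-type library rich in hypothalamic genes, so the wild-type Ccnd1 level of such tissue is not known here.

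CPM values were scaled by TMM, which sets library sizes so that most genes match. Of 45706 genes in the table, 15643 reached 1 CPM in KO library 8 or in the reference mean. A gene is called higher below when KO library 8 exceeded all 17 reference libraries and was at least 2 times their mean, and lower when it was below all of them and at most 0.5 times their mean. By this rule 1452 genes (9.28%) were higher and 1246 genes (7.97%) were lower. KO library 8 was the highest of the 18 libraries at 26.8% of genes and the lowest at 28.2%, whereas each reference library was the highest at 1.828% to 10.55% of genes. The ratio was at least 10 for 170 genes and at most 0.1 for 129. Of the genes compared, 797 (5.09%) entered only through their level in KO library 8, as the reference mean was below 1 CPM. They include 500 of the higher genes. Single reference libraries entered genes only through their mean, so the rule itself raises the share of genes highest in KO library 8. The correlations above used the same genes. With unscaled library totals the median log2 ratio over all genes was 0.21 in place of -0.01, and the split became 2054 higher and 967 lower.

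**Figure D1:**
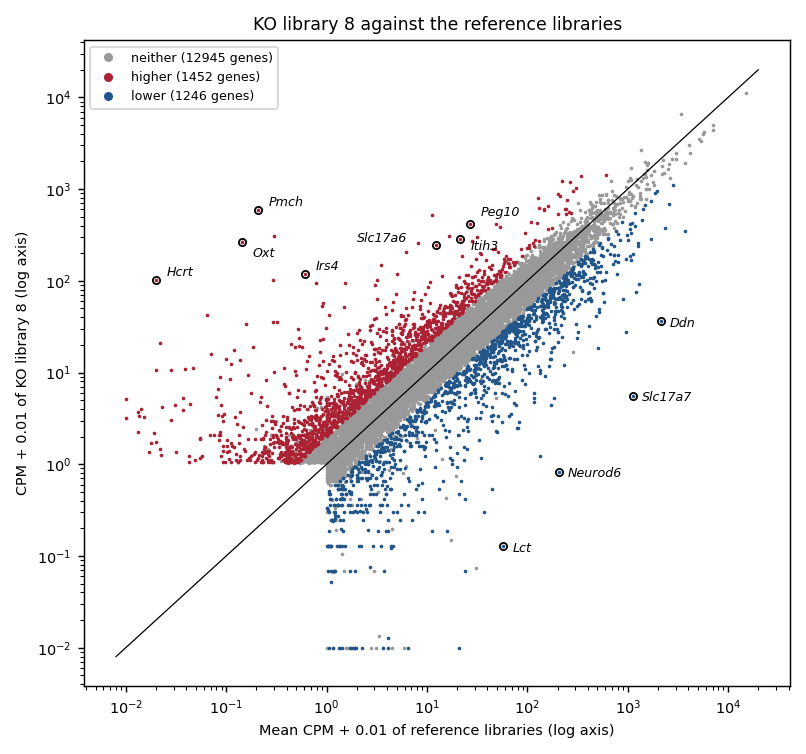
Level of each of the 15643 genes in KO library 8 (vertical axis, CPM + 0.01, log scale) against its mean over the 17 reference libraries (horizontal axis, same scale), 1 point per gene. Red and blue points are the 1452 higher and 1246 lower genes, the line marks equal levels, and Pmch, Hcrt and Oxt lie far above it while Slc17a7, Neurod6 and Lct lie far below.

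All 6 genes used to name the library as hypothalamic were higher in it. Pmch stood at 593 CPM, and the reference libraries had a lowest value of 0.0546, a median of 0.194 and a highest of 0.419 CPM, so that the ratio to their mean was 2984. Pmch is located at chr10:88091072-88092375 (GRCm38, plus strand). Its exons share 435 bases with Parpbp on the opposite strand, and Parpbp was itself at 2.59 CPM in KO library 8 and 0.34 CPM in the reference mean, so a few of the counts may be assigned to either gene. Hcrt, which encodes the orexin precursor that stabilises wakefulness, stood at 103 CPM (1764 counts), while the 17 reference libraries together held 3 counts. The ratio of 10299 for Hcrt therefore has a 95% exact counting interval of 3493 to 49630; without WT 24, 2 reference counts remain and the ratio is 16767. Both lateral hypothalamic peptides were thus near 0 in every reference library of either genotype.

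The other lateral hypothalamic genes were higher as well, apart from Lhx9. Cartpt, the gene of the appetite-reducing peptide CART, stood at 95.3 CPM against 0.324, 1.29 and 7.59 CPM (lowest, median and highest reference library), 62.2 times the mean. Gal, which encodes galanin, stood at 29.5 CPM against 0.273, 0.467 and 0.949 CPM, 58.5 times the mean. Nts, for neurotensin, was 7.17 times the mean at 20.5 CPM, but its reference libraries were spread from 0.182 to 8.95 CPM. Tacr3, the neurokinin B receptor, was 6.13 times the mean and Qrfp 19.6 times, the latter at only 1.81 CPM. Lhx9, a transcription factor gene of the same list, was lower, at 7.07 CPM against a reference mean of 24.2 ± 4.77 CPM (SD, n = 17).

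Oxytocin and vasopressin are released from the posterior pituitary and act on birth, milk release and water retention. Oxt stood at 262 CPM against 0, 0.0666 and 0.376 CPM, a ratio of 1965, and Avp at 307 CPM against 0, 0.325 and 0.524 CPM, a ratio of 1056. The genes lie close together on chromosome 2 (Oxt at chr2:130576173-130577054 on the plus strand, Avp at chr2:130580620-130582554 on the minus strand). Otp and Sim1, transcription factors needed to form the neurosecretory neurons that make these peptides, stood at 41.9 and 21.1 CPM. Their highest reference libraries had 0.194 CPM of Otp and 0.0873 CPM of Sim1. Trh, the gene of thyrotropin-releasing hormone, was 367 times the mean at 103 CPM. Crh, for corticotropin-releasing hormone, differed much less, at 5.03 CPM against 0.668, 1.36 and 2.27 CPM, 3.81 times the mean. All 7 genes of the paraventricular and supraoptic list were higher, but only 1 of them, Crh, reached 1 CPM in the reference mean, and Oxt, Avp, Otp and Sim1 are among the genes that named the library. Their median ratio, 941, is that of Ucn3, which had 1 count in all reference libraries together.

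Per kilobase of exon, which allows a comparison between genes, the peptide genes of the lateral and paraventricular lists ranked with Pmch first at 792 CPM per kb, then Avp at 533, Oxt at 488 and Hcrt at 138. Cartpt (74.6 CPM per kb) and Trh (74.4) lay close together. Gal (37.5), Nts (16.4), Crh (3.81), Ucn3 (2.69) and Qrfp (0.619) followed. Of the other peptide genes, Pomc was at 38.8 CPM per kb, Adcyap1 at 18.9, Tac2 at 14.4, Ghrh at 5.77 and Agrp at 3.46. With 1 library the order has no replicate error, and neighbours as close as Cartpt and Trh cannot be ranked.

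In the arcuate and dorsomedial list, 9 of 11 genes were higher, 1 was lower and 1 was neither, and 4 of the 11 reached 1 CPM in the reference mean. Pomc, the precursor of the satiety peptide alpha-MSH, stood at 51.2 CPM against 0.543, 1.04 and 7.97 CPM, with KO 4 as the highest reference library, and was 34.5 times the mean. Agrp, whose product opposes alpha-MSH at melanocortin receptors, reached only 3.51 CPM, 41.3 times a mean of 0.085 CPM, and 114 bases of its exons overlap Ctcf. Ghrh, for growth hormone-releasing hormone, stood at 3.86 CPM (140 times) and Tac2, for neurokinin B, at 19.8 CPM (11.8 times). Npy, which arcuate Agrp neurons and hippocampal interneurons both make, was the lower member, at 10.3 CPM against 23.6, 29.3 and 37.1 CPM. Prdm12, at 2.71 CPM, lay within the reference range because WT 15 had 6.21 CPM; without WT 15 it was above the range at 7.05 times the mean. Kiss1 was not used here.

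Genes of the ventromedial, suprachiasmatic and mammillary regions were present too. Nr5a1, which marks and specifies the ventromedial nucleus, stood at 10.8 CPM with a highest reference library of 0.13 CPM (371 times the mean). Fezf1 was at 15.8 CPM against at most 0.226 CPM, and Adcyap1, for the peptide PACAP, at 71.5 CPM against 2.12, 4.88 and 8.9 CPM. In the ventromedial list 5 of 6 genes were higher, and 3 of the 6 reached 1 CPM in the reference mean. Sox14 was neither, with 41 counts in KO library 8 and 55 in KO 4. Without KO 4 it was above the range. In the suprachiasmatic list, where 2 of 8 genes reached 1 CPM in the reference mean, 6 were higher, among them Six6 (586 times the mean), Lhx1 (19.5 times), Vipr2 (6.95 times) and Prok2 (8.68 times). The clock peptide gene Vip, at 17 CPM, lay inside a reference range of 7.51 to 23.1 CPM, and Grp was lower, at 22% of the mean. The 7 mammillary and subthalamic genes that reached 1 CPM did so in KO library 8 and none in the reference mean, which all but fixes their higher calls. Among them were Foxb1 at 12.3 CPM (120 times the mean) and Lhx5 at 10.1 CPM (34.8 times). The reference mean of Foxb1 rests on KO 4 (1.54 CPM), without which the ratio was 966.

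Another list held 16 transcription factors that pattern the hypothalamus, and Lhx9 and Prdm12 were not in it. All 16 were called higher, and their median log2 ratio was 7.71, beside -0.01 over all genes. The largest log2 ratio of the list, 10.8, was that of Sim1, which is among the genes that named the library. Nkx2-1, which specifies the ventral hypothalamus, stood at 19.1 CPM against 0.144, 0.307 and 4.02 CPM, 34 times the mean, or 55.5 times without WT 15. Its relative Nkx2-4 had 87 counts in KO library 8 and 0 in all 17 reference libraries, which makes it at least 504-fold higher when the references are set to 3 counts over the group. The smallest ratio was that of Nkx2-2 at 2.38, a gene that oligodendrocyte lineage cells also express. Only 2 of the 16 reached 1 CPM in the reference mean, so 14 entered through KO library 8 alone. Entry by that route all but fixes their higher calls.

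**Figure D2:**
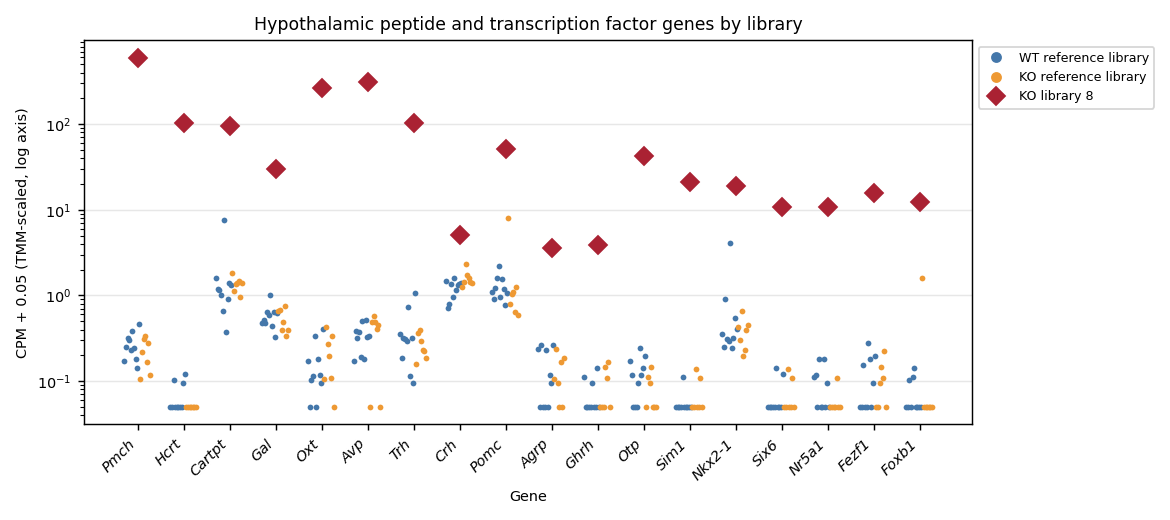
Level of 18 hypothalamic peptide and transcription factor genes (CPM + 0.05, log axis) in KO library 8 (red diamonds) and in the WT (blue) and KO (orange) reference libraries, 1 point per library. The diamond lies above every reference point for each gene shown, with the narrowest gap at Crh (5.03 against at most 2.27 CPM) and single raised reference points such as KO 4 for Pomc (7.97 CPM).

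The vesicular glutamate transporter genes differed in opposite directions. Slc17a6, which encodes VGLUT2, the vesicular glutamate transporter of diencephalic neurons, stood at 244 CPM against 0.983, 8.61 and 42.7 CPM, 19.8 times the mean. Slc17a7, which encodes VGLUT1, stood at 5.61 CPM against 791, 1139 and 1367 CPM, 0.495% of the mean. None of the 15643 genes was farther below the references in units of their spread: Slc17a7 lay at -38 SD on the log2(CPM + 0.5) scale. Among genes of GABA synthesis and transport, Gad2 was higher (370 against 160 ± 37.9 CPM, SD, n = 17) and Gad1 lay within the range (332 CPM against 295 to 483). Slc32a1, the vesicular GABA transporter, was at 151 CPM, just above the highest reference value of 149, and its ratio of 1.99 missed the rule. In bulk tissue, fewer cells of a type and less RNA per cell cannot be told apart, and this holds for every gene and list here.

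Of the monoamine genes, those of dopamine and histamine were higher. Th, tyrosine hydroxylase, stood at 35.9 CPM against 0, 0.2 and 1.08 CPM, and the dopamine transporter Slc6a3 at 19 CPM against at most 0.364 CPM, 108 times the mean. Ddc (50 CPM, 8.07 times) and the vesicular transporter Slc18a2 (48.9 CPM, 5.72 times) complete the dopamine pathway. Hdc, which makes histamine in tuberomammillary neurons of the posterior hypothalamus, stood at 33.3 CPM against 1.09, 2.54 and 5.38 CPM, 11.9 times the mean. Genes of serotonin and noradrenaline neurons, whose cell bodies lie in the brainstem, were at or near 0: Tph2, Slc6a4 and Dbh had 2 counts each and Slc6a2 had 0. Of these Tph2 alone reached 1 CPM in the references, and it was lower. Of the midbrain and hindbrain genes, there were 0 counts of Hoxa5, Hoxb3 and Hoxb5, 12 counts of En2 and 13 of En1. En1, a midbrain dopamine neuron gene, was nonetheless above its references, at 0.76 CPM against at most 0.188 CPM. Genes that midbrain dopamine neurons share with the posterior hypothalamus were above their references too: Lmx1b stood at 4.44 CPM against at most 0.363 CPM, Foxa1 at 3.39 against at most 0.0606 CPM and Lmx1a at 2.05 against at most 0.467 CPM. The higher call of Lmx1a was lost when the libraries left out by Ttr joined the reference, as WT 17 had 7.57 CPM. Foxa2 had 11 counts against 0 in all reference libraries. The part of midbrain tissue in the dopamine genes was not tested.

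Receptors through which peptides and hormones act on the hypothalamus were split. Of 16 feeding-related receptors, 11 of which reached 1 CPM in the reference mean, 9 were higher, 1 was lower and 6 were neither. Calcr, the calcitonin receptor, stood at 34 CPM against 0, 0 and 2.12 CPM (WT 15), 229 times the mean, or 1360 times without WT 15. Brs3 (135 times) and Cckar (85.5 times, or 194 without WT 15) were also near 0 in most reference libraries. The melanocortin receptor Mc3r was 22.9 times the mean (39.6 without WT 15) at 4.79 CPM, whereas Mc4r, at 2.81 CPM, lay within 2.62 to 6.99 CPM. Of the libraries left out by Ttr, WT 17 had 4.34 CPM of Mc3r and KO 12 had 2.61 CPM, so its ratio falls with them included. The orexin receptors Hcrtr1 (4.78 times) and Hcrtr2 (4.09 times) were higher, but the melanin-concentrating hormone receptor Mchr1 (11.5 CPM) was below every reference library by too small a ratio, 0.726. Oxtr, the oxytocin receptor, was at 94.8% of the mean. Lepr, the leptin receptor, stood at 6.37 CPM against a highest reference of 4.85 CPM, and this difference was lost when the choroid-rich libraries joined the reference (log2 ratio -0.01).

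Among hormone receptors Esr1, Prlr and Ghr were higher and Nr3c2 was lower. Esr1, the estrogen receptor alpha, stood at 22.6 CPM against 1.88, 4.26 and 5.65 CPM, 5.8 times the mean. Ghr was 3.08 times the mean, and Prlr 7.18 times, at 41.5 CPM, although the direction for Prlr turned with the choroid-rich libraries in the reference (log2 ratio -0.71). Nr3c2, the mineralocorticoid receptor that is dense in hippocampal neurons, stood at 27.5 CPM against 154, 202 and 251 CPM, 13.8% of the mean. The glucocorticoid receptor Nr3c1 was at 108 CPM, within 82.1 to 120 CPM.

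Because the series concerns insulin, the genes that transmit its signal were described next. Irs4, an insulin receptor substrate with strong hypothalamic expression, stood at 119 CPM against 0, 0.237 and 4.75 CPM (WT 15), 200 times the mean, or 354 times without WT 15. It was the 1 gene called of the 8 in that list. Insr, the insulin receptor, was at 64.9 CPM against 52.7, 56.7 and 66.1 CPM. Irs1 (20.8 CPM) and Irs2 (49.2 CPM) were at 109% and 102% of their means, Igf1r at 84.4% and Igf1 at 92.1%. Thus Irs4 apart, the insulin and IGF genes of KO library 8 lay inside the reference ranges. Ins1 had 0 counts in it and in every reference library.

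Enzymes and granule proteins of peptide secretion were higher for 5 of 10 genes. Scg2, secretogranin II, stood at 844 CPM against 177, 206 and 253 CPM, 3.97 times the mean. Pcsk1, the prohormone convertase that cleaves Pomc and other precursors, was 3.19 times the mean at 53.9 CPM, while Pcsk2 (83.2%) was neither. Pam, which amidates peptides such as oxytocin and vasopressin, stood at 375 CPM against 165, 177 and 193 CPM, 18 SD above the mean of a narrow reference range. Chgb was lower, at 44.8% of the mean, and its relative Chga was higher, at 2.07 times.

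Imprinted genes, which are expressed from 1 parental copy and are often abundant in the hypothalamus, were also shifted. Of 19 that reached 1 CPM, 14 were higher, none was lower, and 18 lay above every reference library, with a median ratio of 4.09. Over all genes compared, 9.28% were higher and 26.8% lay above every reference library. The list was chosen with earlier results of these data known, so its counts carry no test. Dlk1, which encodes a Notch-related membrane protein, stood at 258 CPM against 0.842, 5.26 and 33.6 CPM, 31.6 times the mean. Magel2, deleted in Prader-Willi syndrome together with Ndn, stood at 90.2 CPM against 0.722, 2.75 and 10.3 CPM, 29.7 times the mean. Ndn itself was at 422 CPM, 3.38 times the mean. Peg10 stood at 421 CPM against 13.3, 24.7 and 73.3 CPM (15.7 times), and Peg3, a zinc finger gene, at 1383 CPM against 290, 341 and 412 CPM (4.06 times). WT 15 was the highest reference library for Dlk1, Magel2, Peg10 and Peg3. The non-coding RNA Meg3 was the most abundant of the list, at 6570 CPM against 2489 to 4187 CPM. Its ratio of 1.93 missed the rule, and Snrpn alone lay below its references, at 630 CPM against 634 to 776 CPM.

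On the hippocampal side, the transcription factors of the telencephalon gave the counterpart of the hypothalamic ones. All 12 were lower, with a median log2 ratio of -3.76, and all of them had reached 1 CPM in the reference mean. Neurod6, a factor of pyramidal neurons, stood at 0.818 CPM (14 counts) against 155, 203 and 260 CPM, 0.395% of the mean. Neurod2 was at 1.23 CPM, 0.912% of the mean. Emx1 (3.09%) and Emx2 (6.65%), which pattern the dorsal telencephalon, and Bhlhe22 (5.11%) were at like shares. The largest share kept was that of Zbtb20, at 36.3%, a factor that astrocytes also express.

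The markers of hippocampal subfields differed by subfield: those of dentate gyrus, CA1 and CA3 were lower in the median and those of CA2 were not. All 10 dentate gyrus genes were lower, and their median was 12.6% of the reference mean. Lct, lactase, which marks granule cells in mouse brain data, had 2 counts (0.117 CPM) against 29.9, 57.9 and 90.8 CPM, a ratio of 0.00202 with a counting interval of 0.000254 to 0.00758. Prox1, which specifies granule cells and is also expressed elsewhere in the brain, kept 25.4% of the mean, at 35.5 CPM against 87.8 to 195 CPM. Dsp (5.19%), C1ql2 (13%) and Plk5 (33.6%) lay between or beyond them. Of the 7 CA1 genes 6 were lower, with Fibcd1 at 9.82 CPM against 86.7, 138 and 191 CPM (7.26%) and Spink8 at 3 counts. Wfs1, which neurons outside CA1 also use, was neither, at 72.6 CPM against 57.2 to 160 CPM. CA3 genes were mixed, with 4 lower (Homer3 at 9.8%, Grik4 at 47.7%), Nectin3 just short of the rule at 50.8%, and Coch higher at 3.76 times the mean. In the CA2 list Rgs14 (8.03%) and Ntf3 (4.35%) were lower, while Amigo2 and Map3k15 were higher, at 2.41 and 3.57 times the mean, and Pcp4 and Cacng5 were neither. The CA2 median was 1.61 times the mean. The higher calls of Coch (17.8 CPM) and Map3k15 (7.53 CPM) were lost with the choroid-rich libraries in the reference, as KO 12 had 23.3 CPM of Coch and WT 17 had 14.3 CPM of Map3k15.

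**Figure D3:**
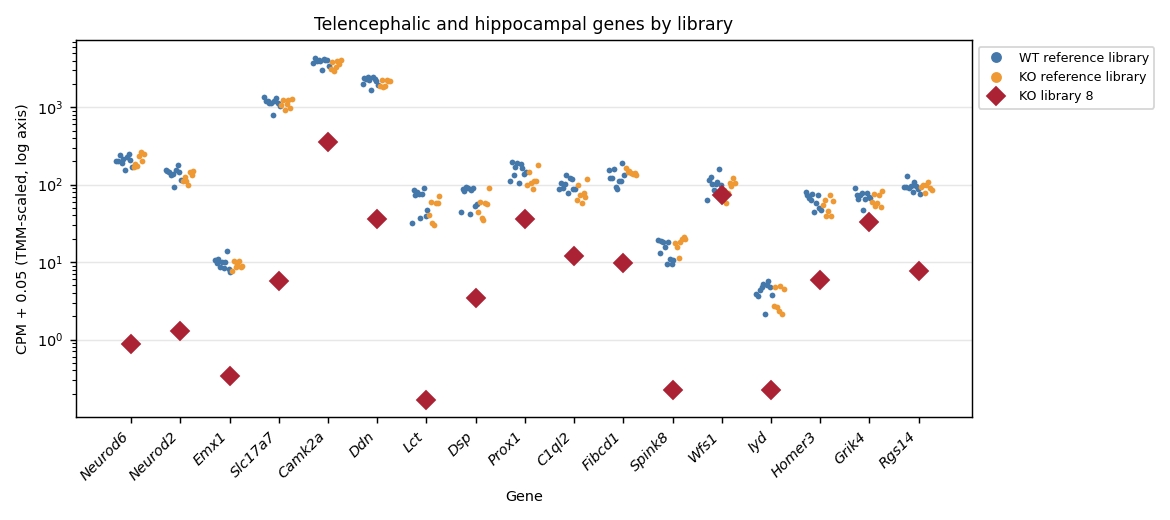
Level of 17 telencephalic and hippocampal genes (CPM + 0.05, log axis) in KO library 8 (red diamonds) and in the WT (blue) and KO (orange) reference libraries, 1 point per library. The diamond lies below every reference point for each gene except Wfs1, whose 72.6 CPM falls among them.

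Among the 15 lower genes with the smallest ratio at a reference mean of 10 CPM or more were Lct, Neurod6, Slc17a7, Neurod2, Spink8, Ddn and Ttr, which the lists already hold and of which Ttr was used to choose the references. Mas1, the receptor of angiotensin-(1-7), stood at 0.292 CPM against 24.4, 38.6 and 47.7 CPM. Rtn4rl2, a Nogo receptor relative, had 0 counts against 14.6, 20.8 and 27 CPM, which places it at least 119-fold lower when KO library 8 is set to 3 counts. Itpka, a kinase of dendritic spines, stood at 4.38 CPM against 141, 172 and 212 CPM, and Ptk2b, a calcium-activated tyrosine kinase, at 27.6 CPM against 733, 1015 and 1185 CPM. Slc9a4, with 1 count, Adra1d, Krt2 and Slc26a4 completed the set.

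Postsynaptic genes of forebrain excitatory neurons were lower in 13 of 14 cases. Ddn, dendrin, stood at 36.2 CPM against 1660, 2187 and 2454 CPM, 1.69% of the mean. Camk2a, the kinase alpha subunit central to synaptic plasticity, stood at 353 CPM against 2952, 3934 and 4378 CPM, 9.43% of the mean. Nrgn, neurogranin, was at 7.09% and Wipf3 at 3.66%. Glutamate receptor subunits differed among themselves, with Grin2a at 8.53%, Grin2b at 23.5%, Gria1 at 34.9% and Gria2 at 38.6%. Dlg4, which encodes PSD-95, was below every reference library but at 51.1% was called neither.

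Activity-regulated genes did not move as 1 group. Arc was lower, at 16.8 CPM against 90.2, 163 and 280 CPM, 9.71% of the mean, and so were Egr3 (10.8%), Nr4a2 (24.9%), Egr2 (27.4%) and Egr4 (30.6%). Fos was higher, at 73.4 CPM against 15.3, 24.7 and 64 CPM, 2.65 times the mean, with WT 15 as the highest reference library. The remaining 6, Egr1, Fosb, Junb, Npas4, Nr4a1 and Btg2, were neither. Of 9 interneuron genes, 6 were lower: Cck, also made by pyramidal cells, was at 10.3% of the mean, Lhx6 at 23.7%, Pvalb at 34.1%, Npy at 35.1%, Lamp5 at 35.7% and Cnr1 at 41.3%. Sst (108 CPM against 101 to 193), Vip and Reln lay within the range.

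Glial and vascular lists held few called genes, apart from those of diencephalic astrocytes and tanycytes described below. Over all genes compared 9.28% were higher and 7.97% lower, so lists this short would hold few calls at those shares. None of the 10 oligodendrocyte genes, 5 precursor genes, 6 endothelial genes, 6 ependymal genes and 8 microglial genes was called. All 10 oligodendrocyte genes lay inside the reference range, at a median of 73.3% of the mean, with Mbp at 1888 CPM against 1501 to 3447 CPM. Of the microglial genes 3 were below every reference library, P2ry12 at 57.3% of the mean among them. Of 8 general astrocyte genes only Slc1a2, the glutamate transporter GLT-1, was called. It stood at 1120 CPM against 2300, 2846 and 3108 CPM. Gja1 (102%), S100b (106%) and Slc1a3 (94.5%) were close to their means.

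A short list of genes that diencephalic astrocytes use more than telencephalic ones was higher in full. Agt, angiotensinogen, stood at 187 CPM against 14.1, 22.3 and 40.8 CPM, 8.46 times the mean. Slc6a11, the GABA transporter GAT-3, stood at 630 CPM against 101, 124 and 214 CPM, 4.84 times the mean. Itih3 stood at 285 CPM against 12.4, 20.7 and 39.8 CPM, 13.2 times the mean. Tanycytes, the cells lining the floor of the third ventricle, gave Rax (41.9 times), Gpr50 (47.2 times) and Col23a1 (3 times), all higher. Dio2, which activates thyroid hormone in tanycytes and in astrocytes, was lower, at 11 CPM against 65.4, 98 and 127 CPM. Vim lay within the range.

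**Figure D4:**
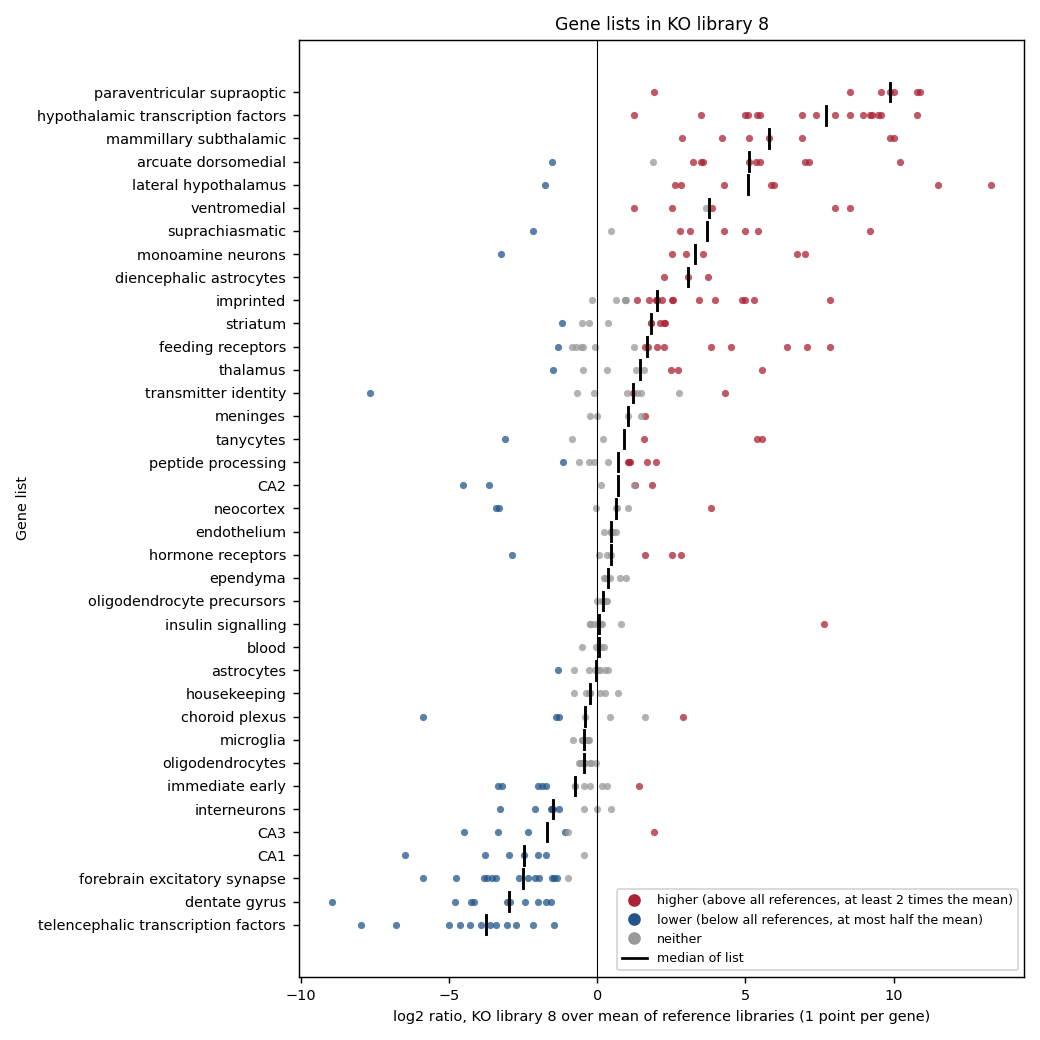
log2 ratio of KO library 8 to the reference mean for the genes of 37 lists (horizontal axis, 1 point per gene that reached 1 CPM), with the median of each list as a black bar and points coloured by call. Lists are ordered by median, from the paraventricular and supraoptic list at 9.88 to the telencephalic transcription factors at -3.76. Oligodendrocytes, their precursors, microglia and general astrocytes have no gene called higher, and diencephalic astrocytes lie at 3.08.

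Markers of neighbouring tissue were looked up for what else the library could hold. Of 8 thalamic genes, Tcf7l2 (42.7 CPM, 6.66 times the mean), Rgs16 and Gbx2 were higher, Ptpn3 was lower and 4 were neither. Prkcd, a main gene of thalamic relay nuclei, was among the latter, at 23.2 CPM within 16.1 to 69.9 CPM. Of 9 striatal genes, Drd2, Gpr6, Rgs9 and Rxrg were higher, Ppp1r1b was lower, and Drd1 and Adora2a were neither. Of 7 cortical genes, Tbr1 (9.48%) and Fezf2 (10.1%) were lower, Rspo1 was higher and 4 were neither, with a median of 1.56 times the mean. Of the latter, Cux2 (39.4 CPM against at most 37.8) and Rorb (34.9 CPM against at most 33.5) lay above every reference library. Of the pituitary genes Cga, the shared subunit of glycoprotein hormones, stood at 5.26 CPM against at most 0.175 CPM, and 305 bases of its exons overlap Platr9. Fshb, which encodes a partner of that subunit, had 9 counts against 0 in all reference libraries, and Lhb was at 0.267 CPM against at most 0.143 CPM. WT 17, left out by its Ttr count, had more Lhb, at 0.68 CPM, and 138 bases of the Lhb exons overlap Ruvbl2. Tshb, at 1.58 CPM, lay within the reference range, as KO 21 had 1.89 CPM. Gh had 1 count and Prl 6 counts, Pou1f1 had 0, and Pitx1 was higher at 1.11 CPM. Of 7 choroid plexus genes that reached 1 CPM, 1 was higher, 3 were lower and 3 were neither. Among the lower genes were Ttr, used to choose the references, and Kl, at 9.53 CPM against at least 17.1 CPM. Clic6 was the 1 higher, at 25.2 CPM, and its direction turned with the choroid-rich libraries in the reference (log2 ratio -0.83). The part of these tissues in the results was not tested.

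The reference libraries were not uniform for these genes. WT 15 was the highest reference library for 498 (34.3%) of the higher genes and KO 4 for 222 (15.3%), and WT 15 was the lowest for 421 of the lower genes. WT 15 was also the highest for 8 of the 15 hypothalamic transcription factors with any reference count, with 10.9 CPM of Six3, 6.15 of Isl1 and 4.02 of Nkx2-1. Its mean log2(CPM + 0.5) over the hypothalamic factors was 0.17, against -0.678 to -0.36 in the other reference libraries and 3.45 in KO library 8. Pmch in WT 15 was 0.333 CPM, within the range of the others. In WT 15 genes of striatum and septum were raised as well, with the highest reference values of Drd2 (6.28 CPM), Zic1 (141 CPM) and Chat (6.28 CPM). For Zic1 and Chat these values exceeded KO library 8. Left out in turn, neither WT 15 nor KO 4 changed the call of any of the 190 named genes called.

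By chromosome, the X stood apart. Of its 562 genes, 103 (18.3%) were higher, while on autosomes the share ran from 6.19% on chromosome 18 to 11.2% on chromosome 14. The median log2 ratio of X-linked genes was 0.164 and that of the autosomes lay between -0.0697 and 0.0105. Irs4, Brs3, Gpr50, Pgr15l and Pcsk1n are X-linked genes with higher calls. These shares are descriptions of 1 library, and genes of a chromosome are not independent.

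The last comparison concerns the design of the study, KO against WT, and how far 1 library bears on it. It used edgeR's quasi-likelihood test with Benjamini-Hochberg adjustment over all tested genes. Both with all 23 libraries (15828 genes tested) and without KO library 8 (15870 tested), the same 2 genes passed an adjusted p of 0.05 (0.0126% of genes), Ccnd1 and Gm26793. Neither is higher or lower in KO library 8. Genes at an unadjusted p below 0.05 numbered 909 (5.74%) with KO library 8 and 652 (4.11%) without it. Of the 1452 genes higher in KO library 8, 1127 were tested. Their median log2 fold change, KO over WT, was 0.30 with the library and 0.08 without it, and 219 (19.4%) against 66 (5.86%) had an unadjusted p below 0.05. Of the 1246 lower genes 1245 were tested, with medians of -0.15 and -0.05, and 45 (3.61%) with the library against 76 (6.1%) without it had an unadjusted p below 0.05. These genes were chosen for their level in KO library 8, which fixes the direction in which adding it moves their fold changes, and both fits share 22 libraries, so the values are set side by side only.

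Single genes showed the same shift. For Pomc the log2 fold change was 2.47 (SE 0.738, adjusted p = 0.781) with KO library 8 and 0.56 (SE 0.397, adjusted p = 0.967) without it, by the edgeR test. Slc17a6 went from 2.0 to 0.69 and Cartpt from 2.63 to -0.50. The imprinted genes Dlk1 (1.98 and -0.13), Magel2 (1.68 and -0.54) and Peg10 (1.09 and -0.29) likewise changed sign. On the hippocampal side Neurod6 went from -0.17 to -0.02, Lct from -0.44 to -0.30 and Prox1 from -0.41 to -0.31. None of these genes passed the adjusted threshold in either fit. Pmch, Oxt, Avp and Irs4 had counts too low in too many libraries to pass the filter and were not tested. Mean Pmch over KO libraries was 54.1 ± 179 CPM (SD, n = 11) with KO library 8 and 0.163 ± 0.106 CPM (SD, n = 10) without it, against 0.221 ± 0.116 CPM in WT libraries (SD, n = 12). Mean Irs4 went from 11.2 ± 35.7 to 0.445 ± 0.447 CPM in KO libraries, against 0.585 ± 1.34 CPM in WT libraries.

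**Figure D5:**
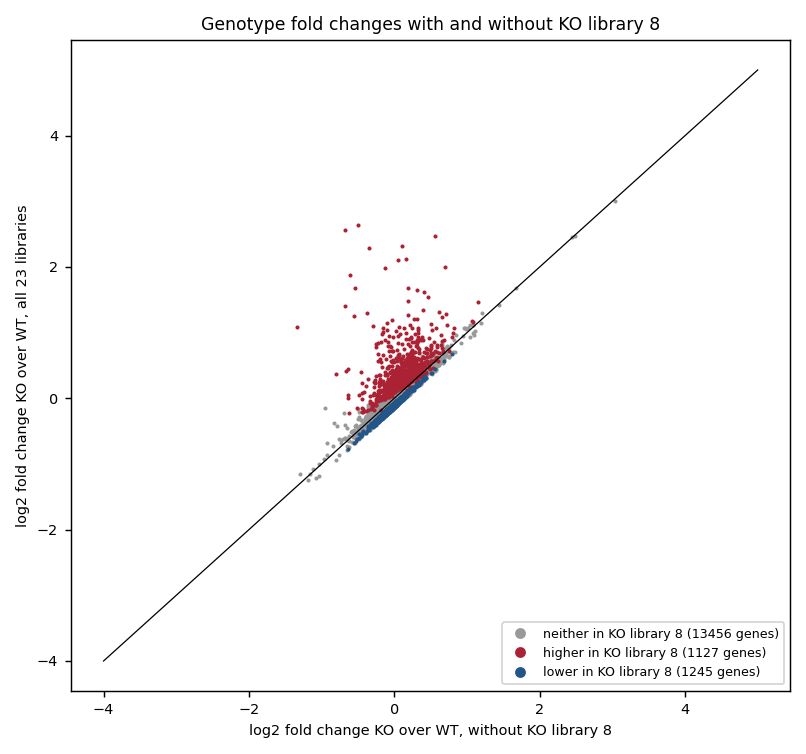
log2 fold change KO over WT from all 23 libraries (vertical axis) against that without KO library 8 (horizontal axis), 1 point per gene tested in both fits. The 1127 genes higher in KO library 8 (red) lie mostly above the line of equal values, and the 1245 lower genes (blue) lie just below it.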

How the data were processed

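RNA was sequenced from 23 samples, 1 library each. The measurements are estimated counts for each gene, as deposited by the authors, and some are fractional. Per the submitters' processing notes, bcl2fastq, STAR and mm10 were used; versions, the counting program, its use of strand and the annotation are not given in the sources used here. Overlapping and antisense genes are therefore uncertain. Symbols and positions came from GENCODE M21 on GRCm38, matched by identifier for 45143 of 45706 genes (98.8%).

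Deposited estimated counts were rounded to whole numbers for TMM factors and the genotype tests (edgeR 4.0.16, R 4.3.3). CPM against the references used unrounded counts and TMM factors over all 23 libraries. Against 1 library no p-value was computed. Distances in SD used log2(CPM + 0.5). Counting intervals are exact at 95%, and floors of 3 counts and intervals cover counting error only. Scripts (Python 3.11.15, scipy 1.17.1) were tested on simulated data.

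Genotype was tested with filterByExpr and robust quasi-likelihood estimation, and with DESeq2 1.42.0 as an alternative. Nothing says that libraries came from separate animals, so p-values measure only the spread between libraries.

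Named genes were those of 43 lists, the 15 higher and 15 lower genes with the most extreme ratio at 10 CPM or more, the 10 farthest in SD each way under the same 10 CPM limits, and Ins2, Ccnd1 and Gm26793. Members, lists and rules were chosen with earlier results of these data known. Choices varied were scaling, reference libraries, entry level, ratio, pseudocount and single libraries. Some named genes are not reported here. Other genes named (Parpbp, Ctcf, Platr9, Ruvbl2) overlap named ones.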

Additional observations from a re-analysis of the deposited data

How the results depend on the processing

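Of the 190 named genes called higher or lower, 187 kept their call with library totals, 190 with RLE factors, 183 with all 22 other libraries as reference, 189 with KO reference libraries only, 190 with WT reference libraries only, 138 with entry in the reference mean alone, 148 with entry at 10 CPM and 144 at a ratio of 4, and none took the opposite call in any setting. The 7 lost with all 22 were Clic6, Coch, Col1a2, Lepr, Lmx1a, Map3k15 and Prlr. Reversed log2 ratios were those of Clic6 (-0.83), Lepr (-0.01) and Prlr (-0.71) with all 22 libraries. The 1452 higher genes became 2728 with no entry minimum, 952 with entry in the reference mean alone, 666 at 10 CPM, 481 at a ratio of 4 and 4190 by range alone, and 1439 to 1525 with each reference library left out. The 1246 lower genes became 409 at a ratio of 4 and 4415 by range alone, and 1235 to 1257. The median log2 ratio of hypothalamic transcription factors, 7.71, became 7.91 (library totals), 7.37 (KO references), 7.94 (WT references), 8.29 (ratio to the median) and 7.49 to 8.2 with each library left out. That of the paraventricular list, 9.88, became 10.07 (library totals), 9.16 (WT references) and 9.73 to 9.83. That of telencephalic factors, -3.76, became -3.55 (library totals) and -3.78 to -3.75, and the dentate median, -2.99, gave -3.02 to -2.94. Of 20 distances in SD, 18 moved with a pseudocount of 2.

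In the genotype comparison, 2 genes were called (1 higher, 1 lower). DESeq2 called 4 (3 higher), and the references with KO library 8 alone gave 1 (0 higher). Each library left out gave 2 to 3 calls, 1 to 2 higher and 1 lower, with the extra call without WT 5, WT 19, WT 20 or KO 13. With each library left out, the log2 fold change of Peg10 ranged from -0.29 to 1.31, of Magel2 from -0.54 to 2 and of Dlk1 from -0.13 to 2.51; the highest value of Peg10 and Dlk1 came without WT 15. Fold changes reversed for Peg10 (-0.29), Magel2 (-0.54) and Dlk1 (-0.13) without KO library 8, for Peg10 (-0.36), Magel2 (-0.49) and Neurod6 (0.02) with the references only, and for Peg10 (-0.28) and Magel2 (-0.53) with DESeq2, which replaced 123 outlying counts of KO library 8 of 227 in all. The cause was not tested, beyond the libraries each fit holds. No paired analysis was possible because no replicate number occurs in both genotypes. At this depth ratios of genes with a few reference counts, such as Hcrt, are known only within wide intervals, and 1 library has no replicate error.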

Other observations

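KO library 8 held 190 counts of C130093G08Rik (11.1 CPM), for which the highest reference library, WT 15, had 0.316 CPM, and 302 counts of Pgr15l (17.7 CPM), an orphan receptor gene with at most 0.497 CPM in the references. Both are among the 15 higher genes with the largest ratio at 10 CPM or more, at 298 and 161 times the mean, and C130093G08Rik was at 559 times without WT 15. Of the housekeeping genes, Actb lay below every reference library at 711 CPM against 1069 to 1390 CPM and Gapdh at 424 CPM against 513 to 602 CPM. Neither reached the ratio for a call. Hemoglobin genes lay within the range, with Hbb-bs at 69.3 CPM against 29.3 to 252 CPM.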
